A study of Homo sapiens with 12 samples.

Results

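Gene expression was compared between MDA-MB-231 cells transfected with a plasmid for Dicer carrying mutation 3 and cells transfected with a plasmid for wild-type Dicer. MDA-MB-231 is an established human triple-negative breast cancer line, grown from an epithelial adenocarcinoma. The 3 samples labelled Mutation_3 plasmid transfection and the 3 labelled Wild-type plasmid transfection were taken by that label, 6 of the 12 samples in the series, and every one of the 64252 gene IDs counted in each was considered. The other 6 samples received plasmids with mutation 1 or mutation 2 and are used here only to show where mutation 3 stood apart. All 12 shared the cell line, Lipofectamine 3000, DMEM with 10% fetal bovine serum, and poly(A) selection before library preparation. The mutations are numbered and not named, no deletion of the cells' own DICER1 is stated, and no cells without a plasmid were analysed here. Time after transfection is not given in the sources used here.

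Dicer is the cytoplasmic ribonuclease that cuts hairpin precursors into mature microRNAs of about the length of a short interfering RNA. Its helicase domain, PAZ domain and paired RNase III domains each take part in cutting. A mature microRNA guides an Argonaute protein to messenger RNAs that pair with its seed, the bases near its 5′ end, and such messages are translated less and decay sooner. In breast cancer cells the let-7 family is known for holding down growth and fetal genes, and the miR-200 family for holding down the mesenchymal transcription factors ZEB1 and ZEB2.

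The mature sequences below, from RefSeq, are shown because their target genes were followed in the comparison. Each is written 5′ to 3′ and the capitals mark the seed, bases 2 to 8.
let-7a-5p: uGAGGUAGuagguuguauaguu
miR-200c-3p: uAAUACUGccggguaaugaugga
miR-141-3p: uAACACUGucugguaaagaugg
miR-21-5p: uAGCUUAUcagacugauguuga
miR-17-5p: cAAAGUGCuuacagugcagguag
A site in a message that pairs with the seed and has A opposite base 1 has 8 letters, for example CUACCUCA for let-7a-5p, CAGUAUUA for miR-200c-3p and CAGUGUUA for miR-141-3p. The microRNAs miR-200c-3p and miR-141-3p come from neighbouring hairpins and their seeds differ by 1 letter.

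The libraries held between 13815164 and 17078273 counts. The mutation 3 libraries differed from each other by little more than counting noise, with a chi-square per degree of freedom of 1.297 to 1.7 over at least 13844 genes. Wild-type replicates 2 and 3 were as close, at 1.258. Wild-type replicate 1 stood apart from both, at 148.2 and 141.4, under the same label. Its mitochondrial mRNAs made up 1.34% of counts, against 5.04% and 5.09% in the other wild-type libraries and 4.81% to 5.05% with mutation 3. Results are therefore given with all 3 wild-type libraries, and beside them the difference from replicate 1 and from replicates 2 and 3, since these are in effect different references. Where nothing else is said, p-values are from edgeR's quasi-likelihood test with Benjamini-Hochberg adjustment over all genes tested. Levels are CPM, the usual rate of a gene's counts in the library total, after scaling between libraries. The labels do not say whether replicates were separate cultures, and the spread behind each p-value may therefore be only technical. Fits without wild-type replicate 1, or with it as the only wild-type library, do not hold its distance from replicates 2 and 3. Calls from those fits show only how a result depends on the reference.

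The labelled line was checked against its usual markers. VIM, an intermediate filament of mesenchymal cells, stood at 1196, 1196 and 1208 CPM in the mutation 3 libraries and 987, 1883 and 1872 in wild-type replicates 1 to 3. The surface receptors CD44, EGFR and AXL stood at 1159, 1164 and 1155, 291, 296 and 295 and 1644, 1609.7 and 1596 CPM with mutation 3. Each was called higher than in wild type (log2 0.81, 0.48 and 0.27). With only the 6 libraries compared none passed (adjusted p = 0.054, 0.0571 and 0.113). The oestrogen and progesterone receptors ESR1 and PGR and the luminal factor FOXA1 lay at or under 0.653 CPM in all 6 libraries. Triple-negative lines lack these. The receptor ERBB2 was also chosen as a low marker. It had 72.9, 71.4 and 68.4 CPM with mutation 3 and 111.5, 76.1 and 78.0 in wild type. MMP1, chosen as a high marker, had 0.939, 0.915 and 0.889 CPM with mutation 3 and 1.84, 10.3 and 9.96 in wild type. SPARC, an abundant matrix protein of mesenchymal cells, was low at 0.939, 0.784 and 0.741 CPM with mutation 3 and 0.459, 2.63 and 2.91 in wild type. Of the 24 markers of other cell types, the leukocyte genes PTPRC and CD3E, the red cell gene HBB and the liver genes ALB and TTR were at or under 0.168 CPM. The filter on low counts was passed by 6 of the 24, GFAP and PECAM1 among them. In wild-type replicates 1 to 3 GFAP had 7.15, 7.88 and 8.67 CPM and PECAM1 2.76, 17.1 and 15.3. With mutation 3 GFAP had 3.82, 4.05 and 2.67 CPM and PECAM1 0.876, 0.588 and 0.889.

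DICER1 itself (ENSG00000100697, chromosome 14, 95086228 to 95158010 on hg38) showed no difference that passed the test. Wild-type replicates 1, 2 and 3 had 27.4, 45.2 and 47.4 CPM and the mutation 3 libraries had 39.4, 38.8 and 40.1. The mutation 3 libraries thus lay above wild-type replicate 1 and below replicates 2 and 3, and the groups overlapped. The log2 fold change was -0.02 (SE 0.16, adjusted p = 0.916). Leaving out wild-type replicate 1 gave -0.23 (adjusted p = 0.000372), a p-value that does not cover the distance between wild-type libraries. Taking replicate 1 as the only control gave 0.52, so the result turned on that library. The sign of the difference from all 3 also turned when wild-type replicate 2 or 3 was left out (0.07 and 0.11, neither called). Reads from the plasmid and from the chromosome cannot be told apart in these counts.

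Over the transcriptome, 8948 of 15094 genes tested passed the threshold between mutation 3 and wild type (59.3%). Of these 4235 were higher with mutation 3 (28.1% of genes tested) and 4713 lower (31.2%), and the median log2 fold change over all genes was -0.01. The 3 mutation 3 libraries and the 3 wild-type libraries did not overlap for 9214 genes (61%). Past the threshold with a change of at least 2-fold were 1725 higher and 1905 lower genes, and for 691 and 689 genes every mutation 3 library was at least 2-fold above or below every wild-type library. These shares are the background against which each gene group below is read. The 35 gene lists hold 1142 places, since a gene can be on several lists, of which 1138 were found in the files and 995 passed the filter on low counts; the counts below are of those tested. Of the 8948 genes, 8693 differed in the same direction from wild-type replicate 1 and from replicates 2 and 3, and 255 in opposite directions. The median size of the difference was 0.68 on the log2 scale against replicate 1 and 0.87 against replicates 2 and 3, and 62.5% of the genes lay nearer to replicate 1. Leaving out replicate 1 raised the number called to 12179 and using it alone gave 10707. When only the 6 libraries compared entered the fit the number was 6600, and 3883 genes passed a test for a fold above 1.5.

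The genes with the widest gap between the groups on the higher side included circadian, stress and cytokine genes. The gap is the smallest fold between any mutation 3 library and any wild-type library. UPB1, the enzyme of the last step of pyrimidine breakdown, had 8.51, 5.75 and 5.48 CPM with mutation 3 and 0.394, 0.223 and 0.129 in wild-type replicates 1 to 3, a 25.8-fold increase (log2 4.69, SE 0.44, adjusted p = 6.83e-06). IL24, a cytokine of the interleukin 10 family, had 87.1, 90.3 and 89.2 CPM against 8.99, 3.91 and 3.49 (16.3-fold, adjusted p = 6.76e-07). In both genes each mutation 3 library was over 9 times the highest wild-type library, and for IL24 that was replicate 1. PER1, a repressor in the circadian clock, had 141, 137 and 136 CPM against 15.3, 12.9 and 12.2 (10.3-fold, adjusted p = 6.45e-09). GDF15, a secreted member of the TGF-beta family that rises under cell stress, had 307, 290.1 and 282 CPM against 39.9, 14.2 and 12.6 (13.2-fold, adjusted p = 9.08e-06). TXNIP, an arrestin-like protein that limits glucose uptake, had 888, 890.4 and 894 CPM against 148, 50.9 and 47.7 (10.8-fold, adjusted p = 1.89e-05). For GDF15 and TXNIP wild-type replicate 1 stood above the other wild-type libraries and well below the mutation 3 libraries. PADI1, a peptidylarginine deiminase, rose 13.6-fold to 40.2 CPM (SD 2.31, n = 3) and PTPRB, a receptor tyrosine phosphatase, 12.3-fold to 19.8 (SD 1.25). YPEL2, SDCBP2, SLC25A27, AURKC and CHAD rose 9.297, 8.36, 7.56, 10.97 and 8.17-fold. PLCB4, a phospholipase C, had 26.04, 23.3 and 24.3 CPM against 3.08, 0.112 and 0.0647, so its 23.2-fold rise was smaller from replicate 1. The pseudogene transcripts PDE4DIPP2 and FER1L4 rose 11.6 and 7.27-fold, values that are uncertain where reads fit near-identical copies. PER1 and YPEL2 averaged 392 and 44.7 CPM with mutation 1 and were called lower with mutation 3 than with mutation 1. TXNIP, SDCBP2, AURKC, CHAD and FER1L4 were not called between those mutants, and the other genes named here were called higher with mutation 3. Against mutation 2 all but PLCB4 were called higher.

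On the lower side the widest gaps were led by transcription factors and secretory genes that were close to 0 with mutation 3. SOX4, a high mobility group transcription factor, had 0.0626, 0 and 0 CPM with mutation 3 and 28.2, 43.1 and 43.8 in wild type, a ratio of 1731 (exact 95% counting interval 310.4 to 68422). The mutation 3 libraries held 1 count of SOX4 in all, and the mean was 2.49 CPM with mutation 1 and 0.252 with mutation 2. SPDEF, an ETS factor of goblet cells, had 0.188, 0.327 and 0.296 CPM against 31.04, 65.8 and 63.8 (194-fold lower, adjusted p = 2.15e-07). FOXA2, a forkhead factor of endoderm, had 0, 0 and 0.222 CPM against 16.5, 80.4 and 79.8, a ratio of 899 (interval 307 to 4360.4). LINC00261, a long noncoding RNA encoded beside FOXA2 on chromosome 20, had no count with mutation 3 and 10.2, 35.03 and 30.9 CPM in wild type, at least 126-fold lower. AGR2, a disulfide isomerase of the endoplasmic reticulum needed for mucin folding, was also at 0 and at least 89.7-fold lower, from 10.96, 21.7 and 21.7 CPM. TRIML2 and NALF1 were at 0 with mutation 3, at least 73.8 and 43.1-fold lower, and TRIML2 had 14.4 CPM with mutation 1. In all of these except TRIML2 the mutation 1 and mutation 2 means were also at or under 2.49 CPM, and the contrast lay between wild type and every mutant group. KYNU, the kynureninase of tryptophan breakdown, had 0.626, 0.261 and 0.148 CPM against 23.1, 56.6 and 58.4 (127-fold lower, adjusted p = 2.94e-06). INHBB, a subunit of activin B, had 0.0626, 0.0653 and 0 CPM against 8.73, 10.6 and 10.9, a ratio of 226 (interval 62.2 to 1869). The focal adhesion gene TNS4, the spindle gene MISP, the transcription factor ATOH8 and TMEM156 fell 209.8, 82.1, 247 and 95.7-fold, and SLAMF7 and ZG16B had ratios of 742 and 359 (intervals 133 to 29334 and 99.02 to 2969). Counts of 1 to 3 in a group make these ratios imprecise, and the intervals cover counting error only.

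**Figure D1:**
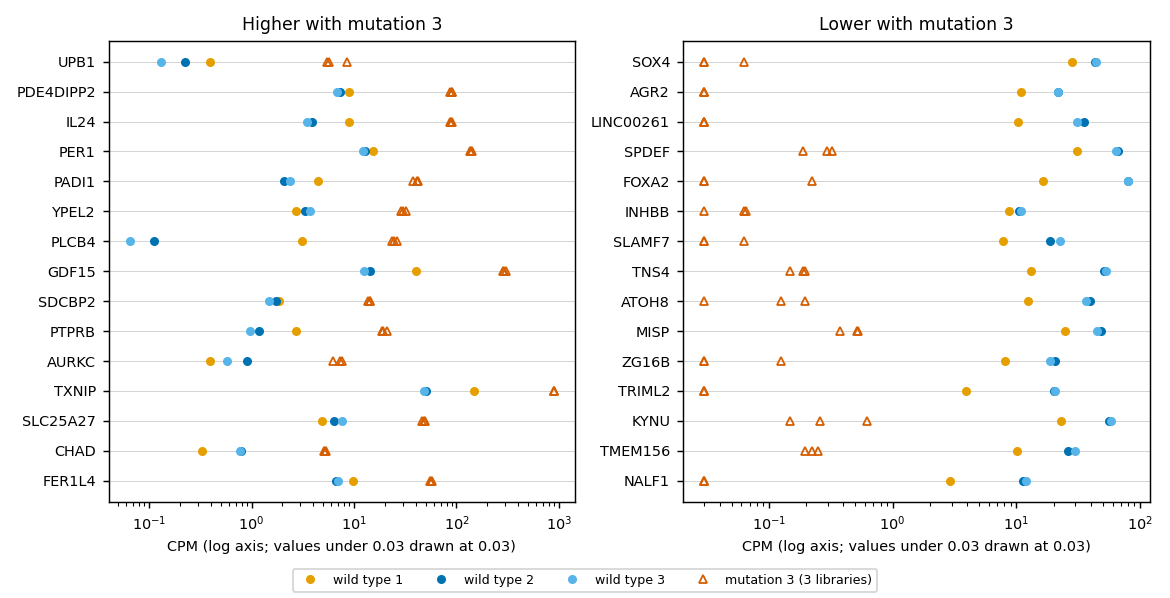
CPM of the 15 higher and 15 lower genes with the widest gap between groups, on a log axis; circles are the 3 wild-type libraries and open triangles the 3 mutation 3 libraries, and each point is 1 library. The groups do not overlap for any of the 30 genes, and wild-type replicate 1 lies between the other wild-type libraries and mutation 3 for each of the 15 lower genes. Libraries without a count are drawn at the left edge.

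Genes of the proteins that make and use microRNAs were called in both directions. Of 34 listed genes 31 were tested, 12 rose and 10 fell, which is 38.7% and 32.3% beside 28.1% and 31.2% over all genes, with a median log2 fold change of 0.04 against -0.01. Of the nuclear processing step, DGCR8, the partner of Drosha, had 19.2, 20.4 and 20.3 CPM with mutation 3 against 35.7, 61.2 and 61.01 (log2 -1.40, adjusted p = 4.89e-05), and every mutation 3 library lay below every wild-type library. DROSHA itself fell by 0.22 on the log2 scale (adjusted p = 0.00319), and SRRT, which links capped transcripts to processing, fell 2.103-fold from 193, 199 and 189 to 96.02, 92.2 and 88.03 CPM. Of the export step, XPO5 had 104, 115 and 104 CPM against 113, 109 and 106 and did not pass (adjusted p = 0.78), while RAN, the GTPase that drives export, fell 2.21-fold. TARBP2, the double-stranded RNA binding partner of Dicer, had 14.2, 11.1 and 11.3 CPM against 27.4, 41.2 and 44.1 (log2 -1.62, adjusted p = 1.56e-05). Its relative PRKRA had 31.9, 30.7 and 33.4 CPM against 29.2, 27.3 and 25.6 (log2 0.23, adjusted p = 0.0319), a small rise that did not pass without any single mutation 3 library or against wild-type replicate 1 alone (adjusted p = 0.0692 to 0.158, and 0.241). It also lost its call without wild-type replicate 2 or 3 (0.0746 and 0.122), without any mutation 1 library (0.054 to 0.0717), without a filter (0.102), with only the 6 libraries compared (0.116) and with DESeq2 (0.0518).

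The Argonaute genes, whose proteins hold the mature microRNA, were higher with mutation 3, AGO1 less firmly than the others. AGO2, the Argonaute that can cut its target, had 29.1, 27.97 and 31.1 CPM against 18.97, 14.1 and 15.1 (log2 0.87, adjusted p = 3.19e-05). AGO3 had 29.4, 29.1 and 28.9 against 11.6, 18.6 and 15.5 (log2 0.94), and AGO4 25.8, 26.8 and 23.6 against 12.9, 9.05 and 9.83 (log2 1.26). AGO1 had 33.7, 33.8 and 31.3 against 30.3, 21.2 and 21.8 (log2 0.43, adjusted p = 0.0113), and against replicate 1 alone its difference did not pass (log2 0.12, adjusted p = 0.251). AGO1 also lost its call without mutation 3 replicate 1 or 2 (adjusted p = 0.0612 and 0.0616) and with only the 6 libraries compared (0.0923). Of the GW182 scaffolds that Argonaute recruits, TNRC6C rose by 0.79 and TNRC6A and TNRC6B did not pass (-0.01 and 0.33); against wild-type replicate 1 alone both were called higher (0.64 and 1.13), and TNRC6A was lower without it (-0.25). The deadenylase scaffold CNOT1 rose 2.02-fold, from 141, 137 and 134 to 277, 278 and 279 CPM, the exonuclease XRN1 rose by 0.82 and the tailing enzymes TENT2 and TUT4 by 0.94 and 0.71. CNOT7, DIS3L2 and XRN2, all of which shorten or degrade RNA, fell by 0.70, 0.69 and 0.35. LIN28A and LIN28B, which block let-7 maturation, had at most 0.0626 CPM.

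Host transcripts of microRNAs and listed targets moved in both directions. Of 19 host transcripts tested 7 rose and 4 fell (median 0.40). MIR222HG, from which miR-221 and miR-222 are cut, had 29.7, 28.9 and 30.5 CPM against 6.89, 16.3 and 15.1 (2.32-fold, adjusted p = 0.00112), and DLEU2, the host of miR-15a and miR-16-1, had 1.19, 1.76 and 1.26 against 5.25, 4.41 and 4.399 (3.32-fold lower, adjusted p = 2e-05). Of 30 let-7 targets 11 rose and 10 fell (median 0.02). IGF1R, a growth factor receptor among them, had 89.1, 85.99 and 90.5 CPM against 34.98, 41.6 and 39.9 (2.28-fold higher), and RRM2, a ribonucleotide reductase subunit, had 81.7, 87.4 and 85.4 against 235, 187 and 192 (2.41-fold lower). Of 28 targets of the miR-200 family 10 rose and 9 fell (median 0.12). ERRFI1, a feedback inhibitor of the EGF receptor, had 987, 992 and 997 against 365, 332 and 342 (2.86-fold higher, adjusted p = 1.17e-08), whereas ZEB1 and ZEB2 did not pass (log2 -0.41 and -0.17). Both were called higher against wild-type replicate 1 alone (0.68 and 0.42) and lower without it (-0.74 and -0.40). Of 32 targets of miR-21 and the miR-17 family 12 rose and 11 fell, with RBL2 3.302-fold higher and RHOB 3.56-fold lower. Of 35 targets of miR-29, miR-221 and miR-31 10 rose and 7 fell, with FOXO3 3.35-fold and BBC3 2.66-fold higher. The medians of these last lists were 0.24 and 0.11, and each of the 4 target lists held members on both sides where 28.1% of all genes rose and 31.2% fell. When wild-type replicate 1 was left out, the numbers higher and lower were 10 and 8 for the host transcripts and 17 and 10 for the miR-29, miR-221 and miR-31 targets.

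The seed sites printed above were then counted in annotated 3′ untranslated regions. Among 12504 genes with such a region 27.3% rose and 34.5% fell, and the median log2 fold change was -0.06. The 524 genes with CUACCUCA had 30.5% higher and 33.4% lower (median -0.01), the 641 genes with CAGUAUUA had 35.4% and 30.9% (median 0.04), and the 712 genes with CAGUGUUA had 33.4% and 29.8% (median 0.08). The 354 genes with the miR-21-5p site AUAAGCUA had 32.8% and 31.9% (median -0.02), and the 681 with the miR-17-5p site GCACUUUA had 29.96% and 31.3% (median -0.02). Of the other 10 microRNAs searched, the miR-34a-5p site went with more lower genes (735 genes, 29.9% higher and 36.9% lower, median -0.07), and the 37 genes with the miR-100-5p site had the highest median, 0.22. The other 8 had medians between -0.04 and 0.06. Genes with a site had long untranslated regions, with medians from 3083.5 to 3399.5 bases for the 5 microRNAs printed against 1353.5 for all. Length alone went with the same drift, from 24.2% higher and 34.5% lower for regions of at most 500 bases to 33.9% and 30.1% for those over 4000 bases (medians -0.08 and 0.06). A site is a match of letters and not a measured target.

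DNA replication genes were lower with mutation 3 in nearly the whole list. Of 48 genes of the G1/S transition and replication 43 fell and 0 rose, with a median of -0.90, where 31.2% of all genes fell. The median was -1.02 against wild-type replicate 1 and -0.83 against replicates 2 and 3, and 46 and 45 members fell without replicate 1 and with it as the only control, where 0 and 3 rose. PCNA, the sliding clamp of the replication fork (ENSG00000132646, chromosome 20, 5114953 to 5126626), had 78.5, 84.03 and 80.3 CPM with mutation 3 against 283, 264 and 267 in wild type. All 3 wild-type libraries lay over 3 times above all mutation 3 libraries, and the change was 3.35-fold (log2 -1.75, SE 0.054, adjusted p = 8.38e-09). UHRF1, which carries DNA methylation through replication, had 35.4, 34.96 and 34.8 against 139, 158 and 149.8 (4.25-fold lower, adjusted p = 8.38e-09). CLSPN, a checkpoint adaptor at the fork, fell 4.56-fold, CDC6, which loads the MCM helicase, 3.85-fold, and the flap nuclease FEN1 4.34-fold. The members that did not pass were CDT1, ORC1, ORC6, POLE and RPA3, named here after their values were seen, and CDT1, ORC6 and POLE were called higher against replicate 1 alone. Against mutation 2 45 of the 48 were lower with mutation 3 (median -1.20), and against mutation 1 17 were higher and 10 lower (median 0.17). PCNA averaged 63.9 CPM with mutation 1 and 265 with mutation 2.

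Genes of mitosis fell less evenly. Of 41 genes 23 fell and 3 rose (median -0.35). KIF4A, a kinesin of chromosome condensation, had 66.8, 68.7 and 68.1 CPM against 119, 122 and 117 (1.76-fold lower, adjusted p = 2.43e-07), and DLGAP5, a spindle protein, fell 1.76-fold. CDC25B, a phosphatase that starts mitosis, had 404, 394 and 399.9 CPM against 262, 274 and 275 (1.48-fold higher), and ANLN and BUB1 rose 1.603 and 1.38-fold, although BUB1 in wild-type replicate 1 lay within the mutation 3 range and lost its call against that library alone (log2 -0.01, adjusted p = 0.913). BUB1 also lost its call without any single mutation 3 library (adjusted p = 0.0977 to 0.125), without any single mutation 1 library (0.0746 to 0.0758), without wild-type replicate 2 or 3 (0.114 and 0.12), without a filter (0.0879) and with only the 6 libraries compared (0.177). In the fit lacking wild-type replicate 1, 26 members fell and 9 rose. Of 18 histone genes 9 fell and 2 rose (median -0.57). The replication-independent variant H2AZ1 fell 2.16-fold to 207 CPM, and H2AX fell 2.57-fold. Most histone messages lack a poly(A) tail and are poorly measured after poly(A) selection, and several share sequence. Fewer dividing cells and less of these RNAs per cell cannot be told apart in bulk samples.

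Promoters of the replication genes are shown because so many members fell together. The E2F motif was searched as TTTCCCGC, TTTCGCGC, TTTGCCGC and TTTGGCGC on both strands from 250 bases before to 50 after each RefSeq start. It was present in 21 of the 39 members with a promoter window (53.8%), and in 575 of 10850 tested genes (5.30%). Of the 35 of those members that fell, 19 held it. These shares describe the list as chosen, and whether the motif went with the decrease was not tested. The 250 bases before the start of PCNA and UHRF1, the first of the 5 members with the lowest adjusted p that held a match there, are given with matches in capitals (GRCh38.p14, chr20:5126623-5126872 on the minus strand and chr19:4909251-4909500 on the plus strand).
PCNA: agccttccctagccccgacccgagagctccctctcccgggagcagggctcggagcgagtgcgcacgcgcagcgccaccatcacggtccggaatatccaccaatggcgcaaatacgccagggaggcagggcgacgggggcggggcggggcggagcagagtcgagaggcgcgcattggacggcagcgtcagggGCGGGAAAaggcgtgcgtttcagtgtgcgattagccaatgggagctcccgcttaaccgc
UHRF1: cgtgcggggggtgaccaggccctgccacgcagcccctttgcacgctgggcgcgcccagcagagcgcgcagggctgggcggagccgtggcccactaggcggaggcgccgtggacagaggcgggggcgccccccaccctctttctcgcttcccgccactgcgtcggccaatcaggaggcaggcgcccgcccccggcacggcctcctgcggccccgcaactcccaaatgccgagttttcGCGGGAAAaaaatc
The match began 59 bases before the start of PCNA and 14 before that of UHRF1. A match describes letters and does not show binding.

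Interferon-stimulated genes were lower with mutation 3 in their larger part. Of 44 members tested 25 fell and 3 rose, with a median of -0.64 (-0.69 against wild-type replicate 1 and -0.58 against replicates 2 and 3). Without replicate 1, 28 fell and 10 rose, and with it alone 31 fell and 4 rose. OASL, an antiviral relative of the oligoadenylate synthetases, had 3.63, 3.66 and 2.74 CPM against 25.004, 32.3 and 32.7 (8.93-fold lower, adjusted p = 1.13e-07). IFIT3, which binds with IFIT1 to viral RNA ends, had 38.2, 36.5 and 38.97 against 92.4, 94.1 and 95.5 (2.48-fold lower, adjusted p = 3.4e-08). The mutation 3 libraries lay below every wild-type library in both, and the wild-type libraries lay close to each other. HERC6 fell 7.03-fold, SAMD9L 5.99-fold and IFI35 3.91-fold. STAT2 and IRF9, parts of the factor that binds these promoters, rose 1.78-fold and 3.15-fold. STAT2 reached 124, 134 and 126 CPM and IRF9 2.13, 2.09 and 2.45. PARP14 was the other member that rose, 1.24-fold. Against mutation 2 29 members were lower and 3 higher with mutation 3, and against mutation 1 16 were lower and 7 higher.

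The core of the interferon-stimulated response element, searched as TTTCNNTTT on both strands in the same windows, was present in 26 of 36 members (72.2%) and in 744 of 10850 tested genes (6.86%). Of the 21 of those members that fell, 16 held it. Here too the shares describe the list as chosen, and a link to the decrease was not tested. IFIT3 and SAMD9L are shown as members with low adjusted p and a match in the 250 bases before the start, in capitals (GRCh38.p14, chr10:89327747-89327996 on the plus strand and chr7:93148386-93148635 on the minus strand).
IFIT3: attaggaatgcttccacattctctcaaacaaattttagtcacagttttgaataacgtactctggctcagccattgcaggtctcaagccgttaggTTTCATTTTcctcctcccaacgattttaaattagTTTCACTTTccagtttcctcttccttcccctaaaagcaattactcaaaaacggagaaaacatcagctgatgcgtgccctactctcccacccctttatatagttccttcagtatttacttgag
SAMD9L: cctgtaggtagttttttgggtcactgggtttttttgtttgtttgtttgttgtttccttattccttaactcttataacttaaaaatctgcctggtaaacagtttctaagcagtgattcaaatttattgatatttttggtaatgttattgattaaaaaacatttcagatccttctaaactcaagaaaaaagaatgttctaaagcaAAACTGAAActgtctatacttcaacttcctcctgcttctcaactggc
Both genes fell, IFIT3 with a match beginning 156 and another 122 bases before its start and SAMD9L with a match 47 bases before.

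Antigen presentation genes were more often higher. Of 15 tested 10 rose and 3 fell (median 0.43). CD74, the invariant chain of class II molecules, had 1269, 1248 and 1233 CPM against 606, 669 and 657 (1.94-fold, adjusted p = 2.03e-07). NLRC5, a transactivator of class I genes, rose 1.997-fold to 65.5, 67.4 and 67.9 CPM, and the peptidase ERAP2 1.86-fold. CIITA, the class II transactivator, had 11.96, 12.2 and 12.3 CPM against 14.8, 35.9 and 36.3 and fell 2.39-fold, with wild-type replicate 1 near the mutation 3 libraries. The class I genes themselves share reads between near-identical copies and are not given. They were still counted, and HLA-C and HLA-F are among the 10 that rose.

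Inflammatory genes under NF-kB were called in both directions. Of 30 tested 10 rose and 13 fell (median 0.01, -0.31 against wild-type replicate 1 and 0.36 against replicates 2 and 3). IL1B, an inflammatory cytokine, had 124, 128 and 123 CPM against 26.6, 14.4 and 14.6 (6.76-fold, adjusted p = 9.66e-07), and SOD2, the mitochondrial superoxide dismutase, had 403, 419.7 and 413 against 162, 102 and 102 (3.39-fold). IL11, a cytokine linked to bone metastasis, had 9.702, 10.5 and 9.71 against 52.2, 57.4 and 56.7 (5.56-fold lower, adjusted p = 9.42e-09). NFKBIA, the inhibitor that holds NF-kB in the cytoplasm, had 76.99, 73.1 and 76.3 against 176, 206 and 206 (2.596-fold lower), and the chemokine CXCL3 fell 7.404-fold. IL1B and IL24 thus rose while IL11, CXCL3 and NFKBIA fell, each with no overlap between the groups. Without wild-type replicate 1, 17 members rose and 12 fell.

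Secretory epithelial genes of the airway and gut were near 0 with mutation 3. Of the 21 listed, 8 passed the filter and all 8 were lower, but they passed because wild type expressed them, so the count carries no weight. MUC5AC, a gel-forming mucin, had 0.25, 0.327 and 0.0741 CPM with mutation 3 and 8.47, 1014 and 1002 in wild-type replicates 1, 2 and 3 (log2 -11.51, adjusted p = 0.000228). Wild-type replicate 1 was over 100 times below the other wild-type libraries and still above mutation 3. MUC5B, a related mucin, had 0.626, 0.523 and 0.148 CPM against 15.8, 24.97 and 25.04 (48.6-fold lower, adjusted p = 1.77e-06). The trefoil peptides TFF1 and TFF3, secreted with mucins, had 2.95, 1.34 and 1.23 and 2.03, 3.58 and 4.08 CPM in wild type. TFF1 was at 0 with mutation 3, at least 9.11-fold lower, and TFF3 had 0.188, 0 and 0 CPM. The summed level of the list was 92.8, 1220 and 1204 CPM in wild-type replicates 1, 2 and 3 and 2.74 to 3.69 with mutation 3. With mutation 1 and mutation 2 it was 2.25 to 5.91 CPM, a range that holds the mutation 3 values. Secreted airway proteins SCGB1A1, SCGB3A1 and BPIFA1 were at 0 in all 6 libraries. Whether other cells contributed these RNAs to the wild-type libraries was not tested.

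Amino acid genes under ATF4 were mostly lower against either wild-type reference, while the rise of glucose and oxygen genes depended on the reference. Of 31 genes of the ATF4 and amino acid response 23 fell and 4 rose (median -0.87, -0.35 against wild-type replicate 1 and -1.0 against replicates 2 and 3). SLC3A2 and SLC7A5, which pair as the large amino acid transporter, had 205, 205 and 199 CPM against 377, 377 and 383 (1.87-fold lower) and 367, 362 and 358 against 1035, 841 and 819.5 (2.48-fold lower, adjusted p = 4.22e-07). PSAT1, of serine synthesis, had 34.9, 33.9 and 35.9 against 117, 259 and 262 (6.08-fold lower), with wild-type replicate 1 between mutation 3 and the other wild-type libraries. PSPH, the last enzyme of that pathway, fell 2.22-fold. The transcription factors CEBPB and ATF3 rose 1.64 and 2.01-fold, and GDF15, which is on the list, rose as given above. When wild-type replicate 1 was left out, 24 members fell, and with it alone 19 fell and 7 rose.

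Of 39 hypoxia and glycolysis genes 23 rose and 1 fell (median 0.71). VEGFA, the angiogenic growth factor, had 1152, 1142 and 1131 CPM against 237, 137 and 134 (6.76-fold, adjusted p = 6.88e-07). SLC2A3, a glucose transporter, had 197, 189 and 194 against 46.99, 33.6 and 33.3 (5.09-fold, adjusted p = 9.11e-08). The mutation 3 libraries lay above all wild-type libraries in both. The vasodilator ADM and the histone demethylase KDM3A rose 2.05 and 2.77-fold, and ANGPTL4, a lipase inhibitor, fell 1.73-fold. The median was 0.07 against wild-type replicate 1 and 1.21 against replicates 2 and 3. Without replicate 1, 36 rose and 1 fell, whereas with it alone 16 rose and 13 fell, so the one-sided count was obtained only with replicates 2 and 3 among the controls. ANGPTL4 did not pass against replicate 1 alone (log2 -0.12, adjusted p = 0.542).

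**Figure D2:**
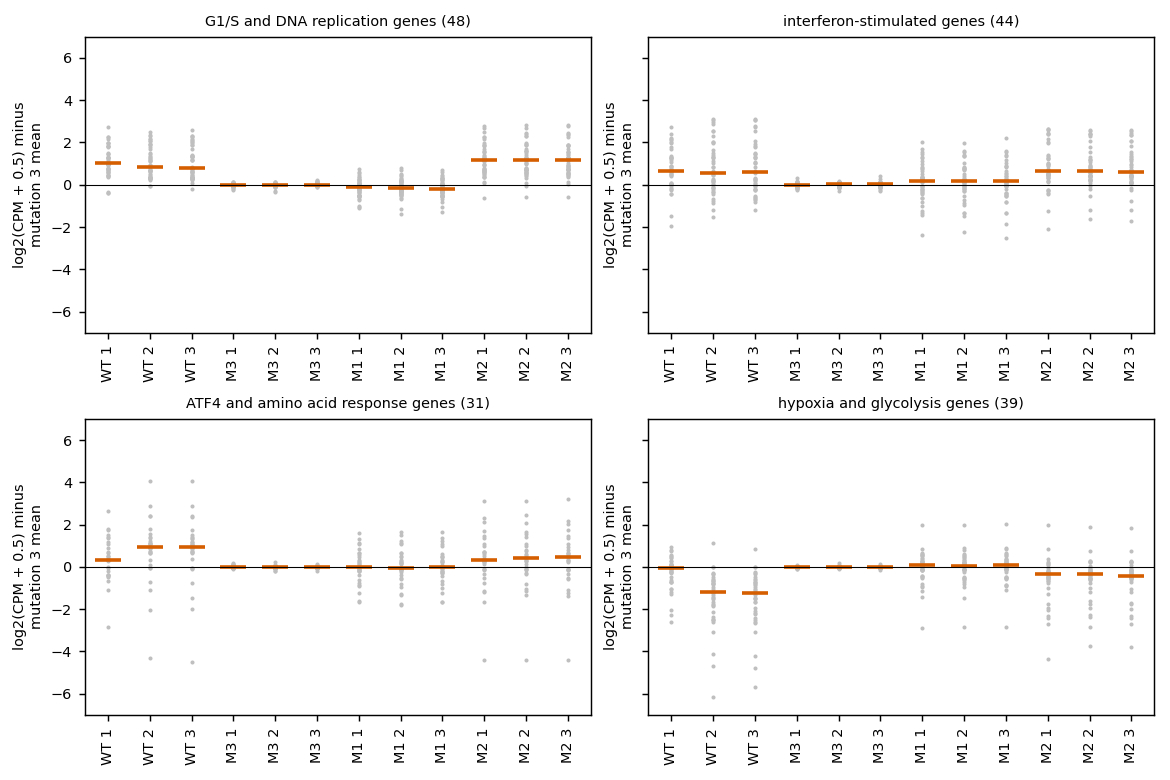
Level of each tested member of 4 gene lists in all 12 libraries, as log2(CPM + 0.5) minus the mean of the 3 mutation 3 libraries; WT is wild type and M1 to M3 the mutations, grey points are genes and bars are medians. The medians of replication and interferon-stimulated genes were above mutation 3 in all 3 wild-type and all 3 mutation 2 libraries, whereas that of hypoxia and glycolysis genes was near it in wild-type replicate 1 and below it in wild-type replicates 2 and 3.

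Lipid, redox, stress and vitamin A genes showed no common direction. Of 28 cholesterol genes 5 rose and 9 fell, with IDI1, an isoprenoid isomerase, 2.34-fold lower and ABCA1, the cholesterol exporter, 8.19-fold higher (151, 154 and 152 CPM against 35.5, 10.6 and 9.899). Of 28 NRF2 target genes 11 rose and 7 fell. OSGIN1, a growth inhibitor among them, had 52.2, 51.4 and 48.2 CPM against 16.9, 16.2 and 16.2 (3.08-fold, adjusted p = 1.61e-07). ALDH3A1, an aldehyde dehydrogenase, had 0.25, 0.131 and 0.222 against 0.722, 83.2 and 81.5, so its 264-fold decrease rested almost wholly on wild-type replicates 2 and 3. Of 24 endoplasmic reticulum stress genes 10 rose and 8 fell, with the sensor ERN1 2.78-fold higher and the chaperone DNAJB11 1.86-fold lower. Of 22 retinoic acid, aldehyde and kynurenine enzymes 10 rose and 6 fell (median 0.49). KYAT1, a kynurenine aminotransferase, rose 2.15-fold while KYNU fell, and CYP26B1, which degrades retinoic acid, had 1.502, 0.719 and 1.04 CPM against 7.09, 6.704 and 7.25 (6.39-fold lower). Of 25 p53 targets 9 rose and 9 fell. TIGAR, a fructose bisphosphatase, had 0.939, 0.784 and 0.519 CPM against 13.1, 13.97 and 13.3 (17.6-fold lower, adjusted p = 3.36e-08), and the death gene BAX fell 1.71-fold while BBC3, another, rose. In the fit lacking wild-type replicate 1, 9 cholesterol genes rose and 14 fell.

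Signalling targets were mixed, with large changes in single members. Of 32 TGF-beta and BMP genes 15 fell and 9 rose (median -0.23, -0.39 against wild-type replicate 1 and -0.12 against replicates 2 and 3). ID3, an inhibitor of helix-loop-helix factors that BMP induces, had 11.7, 13.9 and 12.5 CPM against 74.9, 69.5 and 72.9 (5.705-fold lower, adjusted p = 6.45e-09). BMP4, a ligand, had 83.9, 78.9 and 79.9 against 299, 328 and 334 (3.97-fold lower, adjusted p = 7.14e-09), and SMAD3, which carries the TGF-beta signal, had 683, 689 and 689 against 306, 321 and 313 (2.19-fold higher, adjusted p = 2.37e-08). In each of these the 3 wild-type libraries agreed closely and lay wholly to one side of mutation 3. PMEPA1, a feedback inhibitor, fell 2.63-fold. Of 32 MAPK feedback and AP-1 genes 9 rose and 8 fell. EREG, an EGF receptor ligand, had 111, 108 and 110.4 CPM against 43.3, 46.4 and 44.1 (2.46-fold), MAFF and JUNB rose 2.39 and 1.81-fold, and JUN and JUND fell 1.62 and 1.87-fold. Of 28 YAP/TAZ targets 9 rose and 10 fell, with the matricellular protein CCN1 1.801-fold higher (2636, 2670.3 and 2656 CPM against 1365, 1534 and 1521) and IGFBP3 3.497-fold lower. Without wild-type replicate 1, 15 TGF-beta and BMP genes rose and 16 fell, and 12 MAPK and AP-1 genes rose and 14 fell. With it alone, 24 of the MAPK and AP-1 genes rose and 6 fell, and 14 of the YAP/TAZ targets rose and 11 fell.

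Mesenchymal and epithelial markers did not shift as sets. Of 26 mesenchymal markers 7 rose and 6 fell (median -0.23, 0.21 against wild-type replicate 1 and -0.22 against replicates 2 and 3). CDH11, a mesenchymal cadherin, had 70.98, 66.4 and 67.5 CPM against 252, 235 and 225 (3.48-fold lower, adjusted p = 1.14e-08), and SNAI2, an EMT transcription factor, had 9.26, 10.3 and 8.299 against 21.5, 16.9 and 15.3 (1.92-fold lower). SNAI1, the related factor, rose from 2.49, 0.726 and 0.518 to 6.697, 7.12 and 6.59 CPM (log2 2.46, adjusted p = 0.000445). Fibronectin (FN1) had 197, 202 and 194 against 236, 496 and 492 and fell by 1.05, tenascin C (TNC) rose 1.45-fold and COL6A3 fell 3.11-fold. VIM did not pass (log2 -0.40, adjusted p = 0.0902). Its difference was -0.64 without wild-type replicate 1 and 0.27 against that library alone, so its direction depended on the reference. CDH2, TWIST1 and TWIST2 were under 1 CPM in all 6 libraries. When wild-type replicate 1 was left out, 11 mesenchymal markers rose and 11 fell, and with it alone 12 rose and 7 fell.

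Of 28 epithelial markers 8 rose and 9 fell (median -0.31, -0.50 against wild-type replicate 1 and 0.23 against replicates 2 and 3). The keratins KRT80 and KRT7 had 151, 152 and 148 CPM against 314, 344 and 338 (2.21-fold lower) and 413, 420.5 and 402 against 731, 647 and 620.5 (1.62-fold lower). The tight junction gene CLDN4 had 362, 348 and 341 against 233, 101 and 93.6 (2.46-fold higher). For DSP, the desmosome plaque protein, the values were 269, 269 and 273 and 132, 11.5 and 9.83 (log2 2.41). CLDN4 and DSP were higher in wild-type replicate 1 than in replicates 2 and 3 and, of the 6 libraries compared, highest with mutation 3. With mutation 1 CLDN4 averaged 428 CPM, and it was not called between those mutants. In the fit lacking wild-type replicate 1, 14 epithelial markers rose and 8 fell, and with it alone 8 rose and 17 fell. CDH1, the epithelial cadherin, had 13.8, 1.17 and 1.23 CPM in wild-type replicates 1 to 3 and 0.689, 0.523 and 0.593 with mutation 3, so its decrease (log2 -3.14, adjusted p = 0.0132) came mainly from replicate 1. CDH1 and DSP lost their calls without a filter (adjusted p = 0.063 and 0.0897) and with only the 6 libraries compared (0.0675 and 0.116). Of the breast receptor and luminal markers 9 of 14 were tested, 1 rose and 4 fell, and of the 17 markers of the line 6 rose and 4 fell. Without wild-type replicate 1, these numbers were 5 and 4, and 11 and 5. Of the 6 tested markers of other cell types 2 fell, GFAP 2.24-fold and PECAM1 14.9-fold. For PECAM1 the log2 difference was -1.67 from wild-type replicate 1 and -4.17 from replicates 2 and 3. The summed level of all 24 markers was 35.0 to 37.8 CPM in wild type and 16.7 to 19.9 with mutation 3.

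Matrix, adhesion and protease genes were called in shares near those over all genes, between 22.7% and 35.1% in each direction. Of 35 matrix genes 11 rose and 8 fell, with HSPG2 (perlecan) at 545, 545 and 533 CPM against 125, 194 and 184 (3.22-fold, adjusted p = 2.37e-06) and LAMB3, a laminin chain, 1.76-fold higher. COL17A1, a hemidesmosome collagen, fell 6.23-fold and COL7A1, the anchoring fibril collagen, 1.62-fold. Of 22 integrins and matrix receptors 5 rose and 6 fell. ITGB2, the beta chain of leukocyte integrins, had 0.188, 0.131 and 0.222 CPM against 5.25, 82.3 and 82.04 (303-fold lower), while ITGB4, of hemidesmosomes, had 1156, 1119 and 1092 against 364, 750.5 and 755 (1.801-fold higher). Of 37 proteases and inhibitors 12 rose and 13 fell, with the sheddase ADAM8 1.65-fold higher and the cathepsin CTSL 1.7001-fold lower. MMP14, a membrane metalloproteinase, had 477, 466 and 459 CPM against 348, 1120.3 and 1079.8 (log2 -0.86, adjusted p = 0.0375), so it was above wild-type replicate 1 and below replicates 2 and 3. Against replicate 1 alone MMP14 was higher (log2 0.42). MMP14 lost its call without any single mutation 3 library (adjusted p = 0.0747 to 0.082) or mutation 2 library (0.0516 to 0.0521). The same held without wild-type replicate 2 or 3 (0.142 and 0.13), without a filter (0.132) and with only the 6 libraries compared (0.136). When wild-type replicate 1 was left out, 20 matrix genes rose and 14 fell, and 7 integrins and matrix receptors rose and 10 fell.

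**Figure D3:**
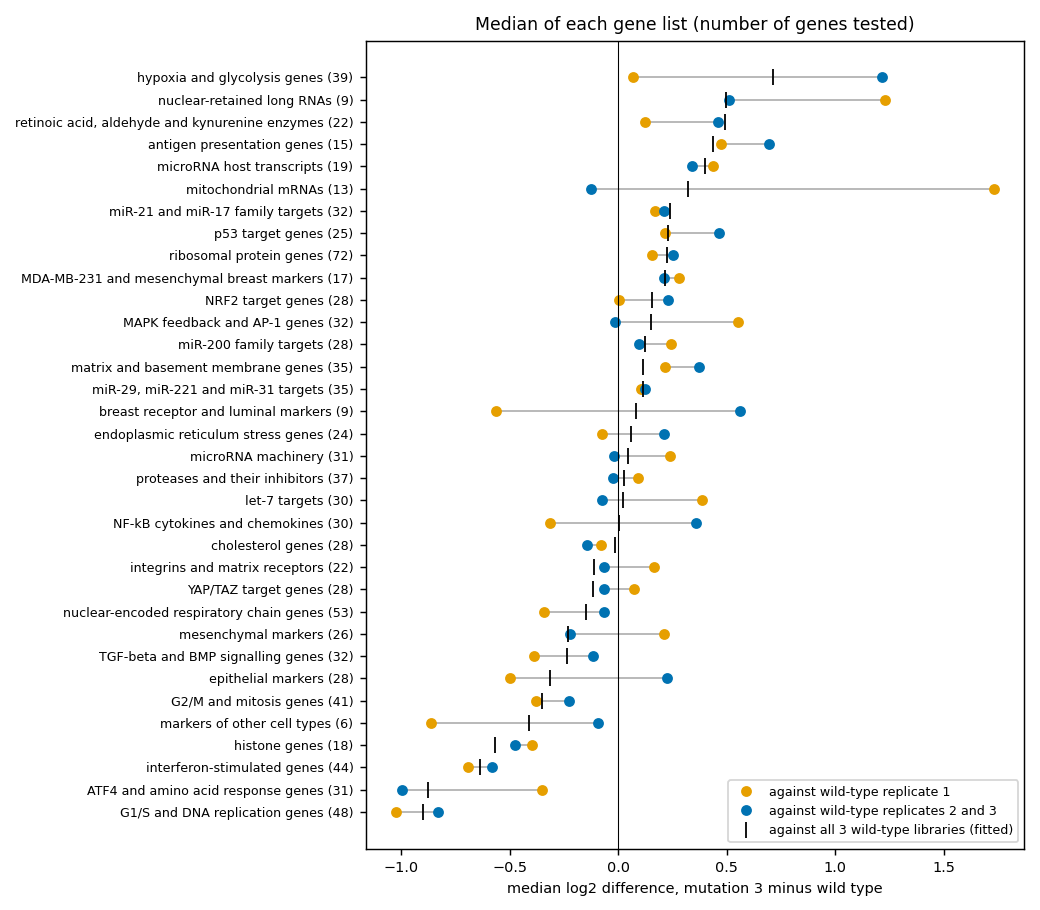
Median log2 difference, mutation 3 minus wild type, of 34 gene lists (the secretory list is left out for scale), against wild-type replicate 1, against wild-type replicates 2 and 3, and as fitted against all 3. Replication and interferon-stimulated genes lie below 0 against either reference, while hypoxia and glycolysis genes move from 0.07 to 1.21 and mitochondrial mRNAs from 1.73 to -0.13.

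Several nuclear noncoding RNAs were higher with mutation 3 than in wild type. Of 9 nuclear-retained long RNAs tested 5 rose and 0 fell, and the other 4 were not called (median 0.49), where 28.1% of all genes rose. Against mutation 1, 1 was higher and 4 were lower with mutation 3 (median -0.36), and against mutation 2, 6 were higher and 0 lower. The summed level of the list was 4818 to 5006 CPM with mutation 1 and 4746.5 to 4864 with mutation 3. NEAT1, the scaffold of paraspeckles, had 724, 718 and 737 CPM against 172, 188 and 188 (3.98-fold, log2 1.99, SE 0.054, adjusted p = 6.45e-09). MALAT1, a transcript of nuclear speckles, had 3114, 3120.3 and 3181 against 442, 859 and 870.4 (4.34-fold, adjusted p = 8.66e-06), and KCNQ1OT1 rose 5.81-fold. With wild-type replicate 1 as the only control, 8 of the 9 rose. The mutation 3 libraries lay over 3 times above every wild-type library in NEAT1 and MALAT1. By annotated class, 31.8% of 711 antisense genes rose and 12.5% fell (median 0.40), and 35.5% of 107 sense intronic genes rose and 13.1% fell (median 0.61), against 27.3% and 34.4% of 12564 protein-coding genes (median -0.06). Counting ignored strand, so reads of an antisense or intronic gene and of its partner cannot be told apart.

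Of 72 ribosomal protein genes 47 rose and 3 fell, by small amounts (median 0.23). RPS12 had 966, 974 and 959 CPM against 617, 623 and 613 (1.56-fold, adjusted p = 2.67e-06), and RPL12 and RPL37 rose 1.44 and 1.58-fold. Many of these genes have processed pseudogenes, and none of the 47 passed a test for a fold above 1.5. Of 53 nuclear-encoded respiratory chain genes 23 fell and 5 rose (median -0.15), with ATP5PB 1.74-fold lower. Of 13 mitochondrial mRNAs 3 rose and 1 fell. MT-ND4 had 13830, 13463 and 13187 CPM against 1505, 8085 and 8172, above all wild-type libraries (2.28-fold, adjusted p = 0.0415), and MT-ND3 had 452, 429 and 433 against 637, 592 and 601 (1.39-fold lower). The median of the 13 was 1.73 against wild-type replicate 1 and -0.13 against replicates 2 and 3, along with the low mitochondrial share of replicate 1. MT-ND4 lost its call without any single mutation 3 library (adjusted p = 0.0709 to 0.0779), mutation 1 library (0.0515 to 0.052) or mutation 2 library (0.0534 to 0.0543), without a filter (0.135) and with only the 6 libraries compared (0.149). In the fit lacking wild-type replicate 1, 5 mitochondrial mRNAs rose and 5 fell, 18 respiratory chain genes rose and 24 fell, and 58 ribosomal protein genes rose and 7 fell. With it alone, 43 respiratory chain genes fell and 3 rose.

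Changes fell unevenly over the chromosomes. On chromosome 13 8.64% of 243 genes rose and 56.8% fell (median -0.61), on chromosome 14 8.85% of 452 rose and 57.3% fell (median -0.57), and on chromosome 12 16.9% rose and 46.6% fell (median -0.40). On chromosome 18 41.3% rose and 16.5% fell (median 0.37), and on chromosome 6 41.2% and 17.7% (median 0.30). Among protein-coding genes of at least 5 CPM, the median difference on chromosome 13 was 0.01 against wild-type replicate 1, -0.62 against replicate 2 and -0.63 against replicate 3. On chromosome 14 the same values were -0.19, -0.61 and -0.65, and on chromosome 18 they were 0.11, 0.63 and 0.62. The offsets were thus against wild-type replicates 2 and 3, and smaller or near 0 against replicate 1. Offsets over whole chromosomes and the distance of replicate 1 bear on every comparison with wild type: the labels do not say whether the 3 wild-type libraries came from 1 stock of cells, and this was not tested. Against the mutation 1 and mutation 2 libraries the chromosome 13 medians were -0.01 to 0.13. Of the genes named, for example DICER1, BMP4, NFKBIA, DLGAP5 and IRF9 lie on chromosome 14 and DLEU2 on chromosome 13. TIGAR, RAN, OASL, KRT80 and KRT7 lie on chromosome 12, and SOX4, SPDEF, SOD2 and VEGFA on chromosome 6. Differences of these and other single genes on such chromosomes from replicates 2 and 3 include the offset of the chromosome. On chromosome 16 mutation 3 was higher than wild-type replicate 1 (0.18) and than every mutation 1 and mutation 2 library (0.16 to 0.27) and lower than wild-type replicates 2 and 3 (-0.19 and -0.16).

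**Figure D4:**
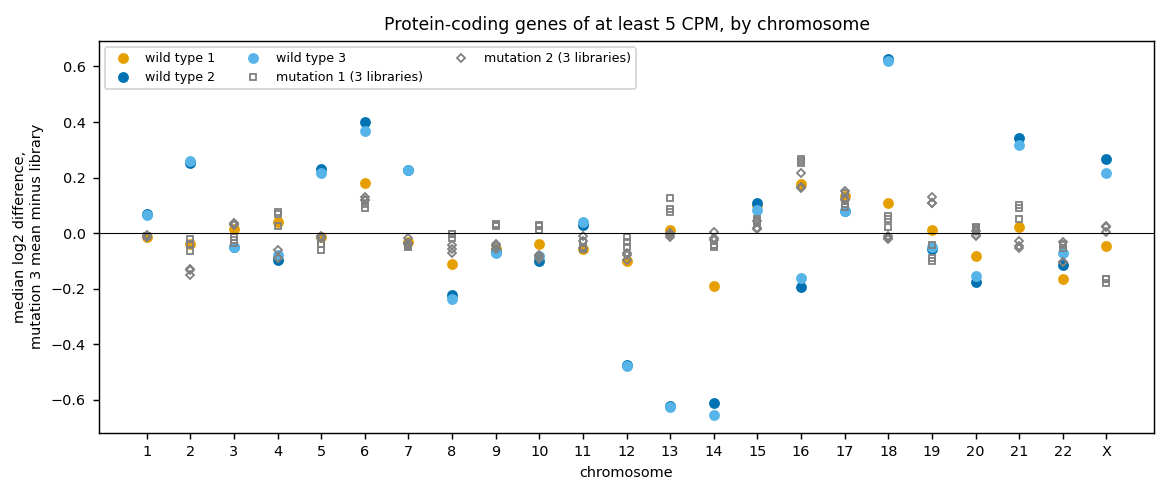
Median log2 difference between the mutation 3 mean and each other library over protein-coding genes of at least 5 CPM, by chromosome, after removing the median over all such genes; each point is 1 library. Wild-type replicates 2 and 3 lie near -0.6 on chromosomes 13 and 14 and above 0.6 on chromosome 18, and wild-type replicate 1 lies between -0.2 and 0.2 on chromosomes 1 to 22 and X; the mitochondrial chromosome is left out.

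Mutation 3 was also set against the other mutants. It differed in 6454 genes from mutation 1 (42.8% of genes tested, 3401 higher and 3053 lower) and in 7980 from mutation 2 (52.9%, 3873 higher and 4107 lower). Called higher than all 3 other groups were 580 genes (3.84%) and lower than all 3 were 623 (4.13%). These comparisons share the mutation 3 libraries. Leaving out wild-type replicate 1 changed the spread that all comparisons share and raised the joint number from 1203 to 2356.

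Of the genes higher than all 3 other groups, UPB1 had the widest smallest gap, with 0.96 CPM on average with mutation 1 and 0.429 with mutation 2. GDF15 averaged 88.6 and 13.4 CPM and PADI1 10.2 and 2.18, against 293 and 40.2 with mutation 3. PTPRB came next, and LCN2, a siderophore-binding lipocalin, and MBTD1, a chromatin reader, were the last of the first 10, with LCN2 at 284, 273 and 272 CPM against 98.3, 25.6 and 28.7 in wild type, 114 with mutation 1 and 85.2 with mutation 2. The mitochondrial asparagine tRNA gene MT-TN had 83.7, 74.5 and 77.3 CPM against 20.7, 23.9 and 21.5, 15.1 and 23.9, a 3.56-fold rise over wild type (adjusted p = 1.41e-05). Counting ignored strand after poly(A) selection, so these reads cannot be assigned to the tRNA rather than to other RNA over the same stretch. The antisense and long noncoding genes ADIRF-AS1, ZNF436-AS1 and GCAWKR were 4.03, 4.12 and 6.53-fold above wild type.

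Of the genes lower than all 3 other groups, HTRA1, a secreted serine protease, had 11.4, 10.1 and 8.299 CPM with mutation 3 against 179, 69.2 and 69.3 in wild type, 85.3 with mutation 1 and 154 with mutation 2 (10.6-fold below wild type, adjusted p = 1.23e-05). IRX3, a homeobox factor, had 0.313, 0.653 and 0.519 against 13.1, 17.9 and 17.6, 20.2 and 4.76 (32.4-fold, adjusted p = 4.52e-08). GGT1, which starts the breakdown of glutathione outside the cell, had 2.25, 2.42 and 2.52 against 33.99, 26.3 and 24.6, 15.3 and 11.2 (11.8-fold, adjusted p = 2.11e-08). In all 3 genes no library of another group reached down to mutation 3. GGT1 has near-identical relatives, so its level is uncertain. The Ras scaffold CNKSR1, the ephrin EFNB1, the interferon-stimulated SAMD9L, the cap-binding EIF4E3 and FAM174B, TRABD2A and IGFBPL1 made up the rest of the first 10, between 3.23 and 13.2-fold below wild type.

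**Figure D5:**
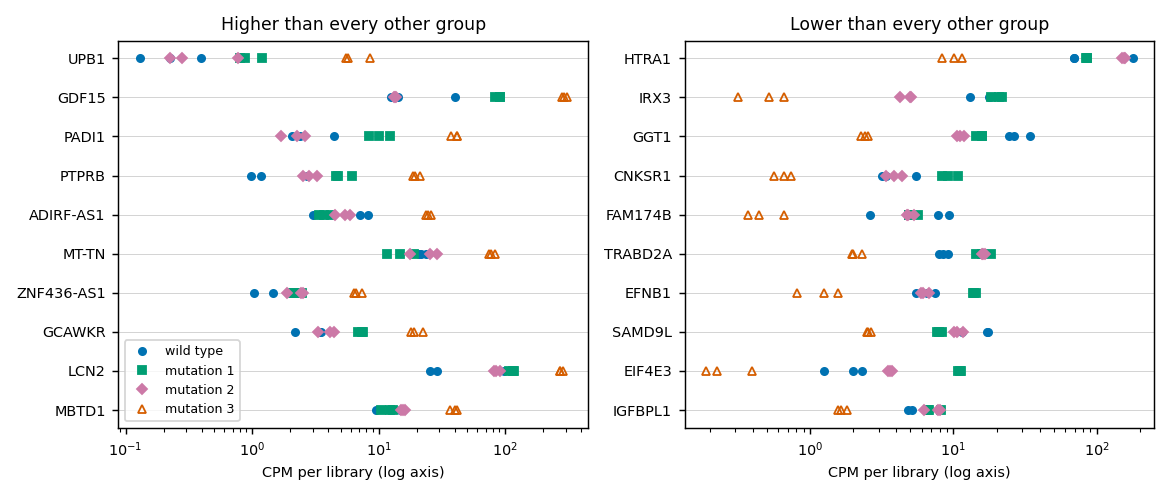
CPM per library, on a log axis, of the 10 genes higher and 10 genes lower with mutation 3 than in each of the 3 other groups, ranked by the smallest gap. Every mutation 3 library (open triangles) lies outside the range of the 9 other libraries, for example 282 to 307 CPM of GDF15 against at most 91.7.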

How the data were processed

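RNA was measured in 12 libraries, of which 6 are described. Per the file headers and the submitters' processing notes, the authors deposited raw counts per gene, made from trimmed reads (FastQC 0.11.8, cutadapt 1.9.1) aligned with STAR to hg38 and counted with featureCounts 2.0.6 without regard to strand, at a mapping quality of at least 10. Totals ran from 13507341 to 17078273 counts. Genes were named through the GENCODE annotation, release 29, which matched 56591 of 64252 IDs, holding 99.68% of counts.

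All 12 libraries entered 1 edgeR 4.0.16 quasi-likelihood fit in R 4.3.3 with TMM scaling. The filter filterByExpr (minimum count 10, total 15) left 15094 genes, and Benjamini-Hochberg adjusted p under 0.05 was the threshold. Groups follow the treatment labels. The gap used log2 CPM with a prior count of 2. Named were DICER1, the 15 genes per direction with the widest gap and at least 5 CPM in the higher group, the 10 per direction apart from all 3 other groups, and of each gene list up to 5 members of lowest adjusted p and up to 3 moving the other way. Members of the marker and microRNA machinery lists could be named whatever their values. The members and the lists were chosen with earlier results of these data known, and no list was given a test. For a bound, a group without any count of a gene was given 3 counts per library. Exact 95% intervals for 1 to 3 counts and these bounds cover counting error only. Seed sites of 8 letters were searched in the longest annotated 3′ region of each gene, and motifs in RefSeq promoter windows. The steps were tested on simulated data. DESeq2 1.42.0, other scalings and filters, other sets of libraries, a minimum fold and leaving out each library were the alternatives.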

Additional observations from a re-analysis of the deposited data

How the results depend on the processing

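The number of genes called between mutation 3 and wild type (8948) was 9215 with DESeq2, 8643 without a filter, 8951 and 8954 with other scalings, 6600 with only the 6 libraries compared and 3883 for a fold above 1.5. It ranged from 7969 to 12179 when 1 library was left out, the highest without wild-type replicate 1. For mutation 3 against mutation 1 (6454) the number was 1813 for a fold above 1.5, 10073 with only the groups compared, 10571 with wild-type replicate 1 as the sole wild-type library, and 5146 to 10521 with 1 library left out, the highest again without wild-type replicate 1. For mutation 2 (7980) it was 2903 for a fold above 1.5 and 6763 to 11518 with 1 library left out. Genes apart from all 3 groups (1203) numbered 160 for a fold above 1.5, 2709 with wild-type replicate 1 alone, and 893 to 2356. Without wild-type replicate 1, or with it alone, the spread that the groups share no longer holds its distance from replicates 2 and 3. The DICER1 difference ran from -0.23 to 0.11 with 1 library left out and was 0.52 against wild-type replicate 1 alone. Against that library alone, which is assumed to vary like the other groups, BUB1 gave -0.0063, CDT1 0.37, MMP14 0.42, ORC6 0.32, POLE 0.37, TNRC6A 0.64, VIM 0.27, ZEB1 0.68 and ZEB2 0.42, each of opposite sign to the value with 3 wild-type libraries. Of 183 other genes named, 183 kept their direction and side of the threshold under each of the other scalings, 180 of the 181 with an adjusted p did so with DESeq2, 176 without a filter, 173 with only the groups compared and 153 for a fold above 1.5. No paired analysis was possible because the labels of the mutant libraries carry no replicate numbers. At the totals given, genes of a few counts are known only to within the intervals given.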
